A study of Mus musculus with 4 samples.

Results

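Tumor macrophage identity and polarization genes were described in RNA sequencing data from mouse tumors with and without knockdown of Taz. The genes were taken by symbol from a fixed list of 43 symbols, and 39 of the 15424 genes in the deposited table had a listed symbol. Adgre1 was found under its older symbol Emr1, Spi1 was listed as Sfpi1 and is given apart from the 39, and Marco and Chi3l3 had no row and are not analysed here. R728T1 cells were placed subcutaneously into nude mice, which are short of mature T cells while their macrophages remain. By the labels R728T1 are non-SMCs (not spelled out) of an Rb/P53 model, and the cell type entry reads small cell lung cancer. Tumors of the control group expressed a luciferase shRNA (labelled shLuciferace, here shLuc), and those of the second group had Taz knockdown (here shTaz). Every tumor therefore came from the same Rb/P53 cells and the same kind of host. The labels name 1 cell line and give neither the age, sex or background strain of the nude mice, nor the shRNA sequences, nor how many animals were used.

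The labels list 2 samples per group, but the table holds 1 FPKM column per group (fragments scaled to kilobases of transcript and to the mapped total). FPKM is scaled to transcript length, so levels of different genes can be set side by side. It does not correct for GC content or for reads shared between similar genes, so ratios between genes are rough. Whether a column is a mean, a pool or a single library is not stated. There is no spread between replicates, so no SD, test or p-value is given, and every difference below has no replicate check. The columns summed to 501728 FPKM in shLuc and 427921 FPKM in shTaz, and the sequencing depth behind them is unknown. Wwtr1, which encodes TAZ, was at 23.4 FPKM in shLuc and 15.1 FPKM in shTaz, or 64.5% of the control value. Differences are log2 ratios of shTaz over shLuc after 1 FPKM was added to each value, so folds of genes at a few FPKM are understated. They were computed for 11650 genes whose mean over the columns reached 1 FPKM, and 2-fold means a difference of at least 1 in size.

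Macrophages are phagocytes that arise from monocytes or from embryonic precursors and depend on the receptor CSF1R and the transcription factor PU.1, the product of Spi1. They sense antibodies through Fc receptors, take up debris and lipoproteins through scavenger receptors, and recognise fungal and damaged-cell ligands through C-type lectins. Interleukin 4 signalling through STAT6 induces genes such as Arg1, Retnla, Mrc1 and Clec10a (alternative polarization), whereas interferon gamma and microbial products induce Nos2 (classical polarization). In many tumors macrophages are the most abundant leukocytes, and a lipid-associated state marked by Trem2, Apoe and Gpnmb is often described.

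Promoter sequences are shown for 4 of these genes because their levels differed in contrasting ways: Retnla was listed at 0 in shTaz, Clec7a and Cd53 were over 2-fold higher there, and Trem2 was lower. RefSeq promoters of the GRCm38.p6 build were found for 27 of the 39 genes, with the first listed start of each gene used. Each sequence holds the 250 bases before that RefSeq start, 5′ to 3′ on the gene's strand. Gene positions given further below are from GENCODE, whose starts can differ. The Retnla window ends at 48842608, past the GENCODE start of 48842551, so its last bases lie inside the GENCODE gene. Capitals mark matches to GAGGAA, the core bound by PU.1 (searched on both strands, so that it also reads TTCCTC), or to TTC followed after 4 bases by GAA, the spaced palindrome bound by STAT6, which reads the same on both strands.
Retnla, chr16:48842359-48842608, plus strand: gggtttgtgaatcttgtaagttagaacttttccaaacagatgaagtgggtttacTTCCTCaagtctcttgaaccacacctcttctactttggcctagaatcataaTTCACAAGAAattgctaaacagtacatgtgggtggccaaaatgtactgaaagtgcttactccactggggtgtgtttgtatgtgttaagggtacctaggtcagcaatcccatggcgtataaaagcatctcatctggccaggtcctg
Clec7a, chr6:129472780-129473029, minus strand: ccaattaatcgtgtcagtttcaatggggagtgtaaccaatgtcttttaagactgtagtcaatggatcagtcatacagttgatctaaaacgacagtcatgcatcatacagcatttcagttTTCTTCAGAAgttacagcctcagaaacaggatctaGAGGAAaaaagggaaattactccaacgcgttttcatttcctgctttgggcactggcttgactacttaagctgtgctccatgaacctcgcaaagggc
Cd53, chr3:106790150-106790399, minus strand: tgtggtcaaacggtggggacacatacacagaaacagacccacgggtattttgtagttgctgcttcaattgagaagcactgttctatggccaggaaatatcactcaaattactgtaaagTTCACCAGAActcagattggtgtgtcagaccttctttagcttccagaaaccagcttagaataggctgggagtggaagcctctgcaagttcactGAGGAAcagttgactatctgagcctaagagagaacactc
Trem2, chr17:48346151-48346400, plus strand: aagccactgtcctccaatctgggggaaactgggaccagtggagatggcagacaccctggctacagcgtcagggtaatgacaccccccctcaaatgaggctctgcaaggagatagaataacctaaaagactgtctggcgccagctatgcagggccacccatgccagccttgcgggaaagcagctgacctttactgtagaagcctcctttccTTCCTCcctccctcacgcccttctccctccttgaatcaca

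GAGGAA was present in 18 of the 27 promoters (66.7%), against 23.1% of 27025 mouse promoters of the same length. In Retnla it began 196 bases before the start, in Clec7a 96, in Cd53 39 and in Trem2 40 bases before. The STAT6 palindrome was present in 4 of the 27 (14.8%), against 5.86% of all promoters, and the 4 were Retnla, Clec7a, Cd53 and Ms4a7. In Retnla it began 145 bases before the start, in Clec7a 131 and in Cd53 132. No match to either sequence lay in these windows of Fcgr2b and Mertk, which were also 2-fold higher in shTaz. The matches are letters in a window and carry no measurement of binding. The same matches occurred in genes that were higher and genes that were lower, as the Retnla and Clec7a sequences show.

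Macrophage genes were abundant in both columns, and their median difference was small and positive. The 39 genes together held 7746 FPKM in shLuc and 8090 FPKM in shTaz, or 1.54% and 1.89% of the summed FPKM. These shares are of unequal column sums, 501728 FPKM in shLuc and 427921 FPKM in shTaz. Apoe, the most abundant, was at 4514 and 4093 FPKM, and Lyz2 was at 920 and 1309 FPKM, in the opposite direction. The summed level is weighted to a few abundant genes and does not show how the other genes differed. Of the 39, 9 were above 100 FPKM in both columns. Of the 36 that reached the mean of 1 FPKM, 26 were higher and 10 lower in shTaz as deposited. Of all genes tested, 58.3% were also on the higher side. The median difference was 0.37, against 0.12 over all 11650 genes. In a bulk tumor, more macrophages and more RNA per macrophage cannot be told apart.

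Clec7a, Msr1, Fcgr2b, Ptprc, Arg1, Mertk and Cd53 were 2-fold higher in shTaz, 7 of the 36 genes, against 3.96% of all genes tested. Their shTaz levels were 228% to 333% of the shLuc levels, and between 0.678% and 2.87% of the tested genes lay higher than each of them. Retnla was past 2-fold in the other direction, 1 of the 36 against 3.25% of all genes, and it was listed at 0 in shTaz. Mertk passed the filter on low values through the shTaz column and Retnla through the shLuc column. The split depended on the scaling. It was 9 higher and 1 lower with both columns rescaled to the same sum, 6 and 3 with median-ratio scaling, 6 and 2 with quantile normalization or with the transcript length trend removed, and 0 and 2 with the trend of GC content removed. In those 5 settings all genes split into 1409 higher and 328 lower, 310 and 493, 294 and 455, 298 and 392, and 167 and 350. The rescaled columns moved the median of all genes up by 0.22 on the log2 scale, and median-ratio scaling and removal of the GC or length trend lowered it by 0.11 to 0.12. The member median stayed above the median of all genes by 0.24 to 0.40 in all 12 settings. These are not independent checks, because several settings reuse the same differences. Rescaled columns and median-ratio scaling multiply whole columns and so shift both medians together.

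**Figure D1:**
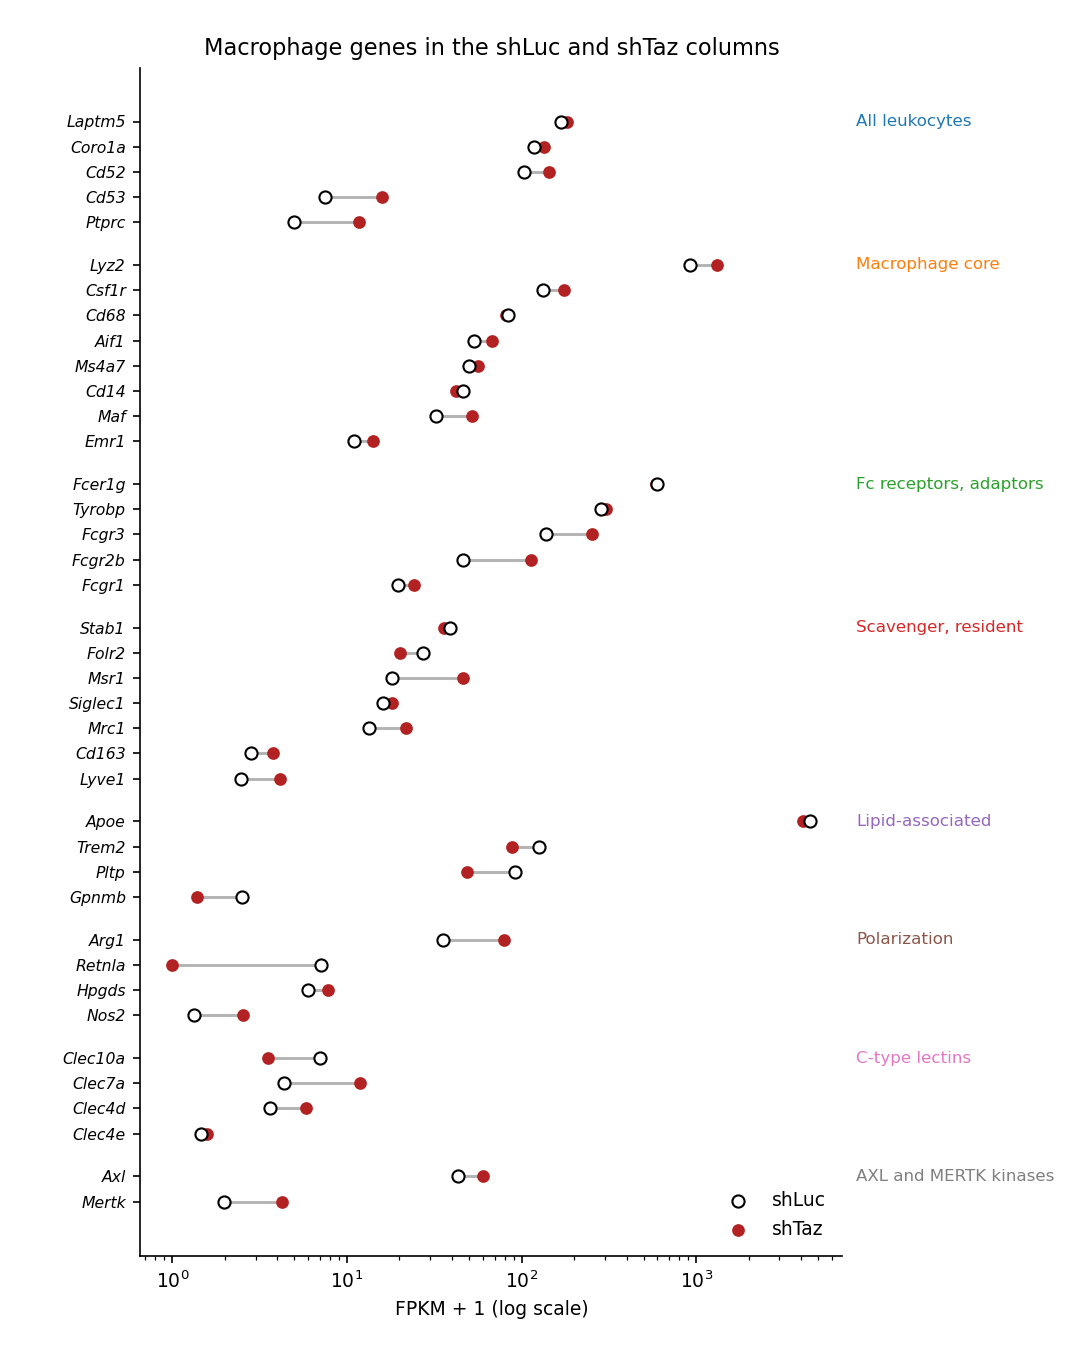
Levels of the 39 macrophage genes, grouped by role, on a log axis of FPKM + 1. Open circles are the shLuc column and red circles the shTaz column (1 value each, no error bars), and the 4 lipid-associated genes are the group with all members to the left in shTaz.

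Genes of all leukocytes were higher in shTaz by unequal amounts. Ptprc, which encodes the phosphatase CD45 found on nearly all white blood cells, was at 3.96 FPKM in shLuc and 10.7 FPKM in shTaz (difference 1.23). Cd53, a leukocyte tetraspanin gene, was at 6.50 and 14.9 FPKM (1.08). These were the least abundant of the 5. Cd52, a small surface glycoprotein gene, was at 103 and 143 FPKM (0.48). Coro1a, an actin regulator of leukocytes, was at 117 and 134 FPKM (0.19), and Laptm5, a lysosomal membrane protein gene, at 167 and 182 FPKM (0.13). The Laptm5 difference was -0.0089 with median-ratio scaling, so its direction was not kept. In mm10, Ptprc lies on chromosome 1 from 138062861 to 138175708 (minus strand) and Cd53 on chromosome 3 from 106759921 to 106790149 (minus strand). Ptprc and Cd53 have GC-poor transcripts (39.4% and 40.0% GC), whereas the other 3 have 51.0% to 58.0% GC. With the GC trend removed Ptprc differed by 0.67, Cd53 by 0.53, Coro1a by 0.47, Cd52 by 0.38 and Laptm5 by 0.28. The spread among the 5 was then smaller and each was still above the median of all genes.

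The macrophage core genes were close to each other, and none differed 2-fold. Csf1r, the receptor on which macrophage survival depends, was at 132 FPKM in shLuc and 174 FPKM in shTaz (0.39). Lyz2, the lysozyme gene of myeloid cells, was the most abundant of the group at 920.1 and 1309 FPKM (0.51). Its paralog Lyz1 was at 49.3 and 88.7 FPKM, and reads may be split between these near-identical copies, but the sum of the pair differed by 0.53. Maf, a transcription factor of resident macrophages that other cells also express, was at 31.2 and 50.9 FPKM (0.69). Emr1, the adhesion receptor gene used to mark mouse macrophages, was at 10.02 and 13.1 FPKM (0.36), and Aif1, an actin-binding protein gene, at 52.7 and 67.1 FPKM (0.34). Csf1r, Lyz2, Maf, Emr1 and Aif1 had 1 direction in every setting. Cd68, a lysosomal glycoprotein gene, was nearly equal at 82.3 and 81.0 FPKM, and Cd14, the co-receptor for lipopolysaccharide, was at 45.3 and 41.4 FPKM (-0.13). Ms4a7, a tetraspan protein gene of macrophages, was at 49.0 and 55.5 FPKM (0.18). The sign of Cd68, Cd14 and Ms4a7 changed between settings, and Ms4a7 was at -0.30 with the GC trend removed. Sfpi1, the older symbol of the PU.1 gene Spi1, was at 111 and 84.0 FPKM (-0.40), or -0.085 with the GC trend removed. Its transcript has 58.9% GC.

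**Figure D2:**
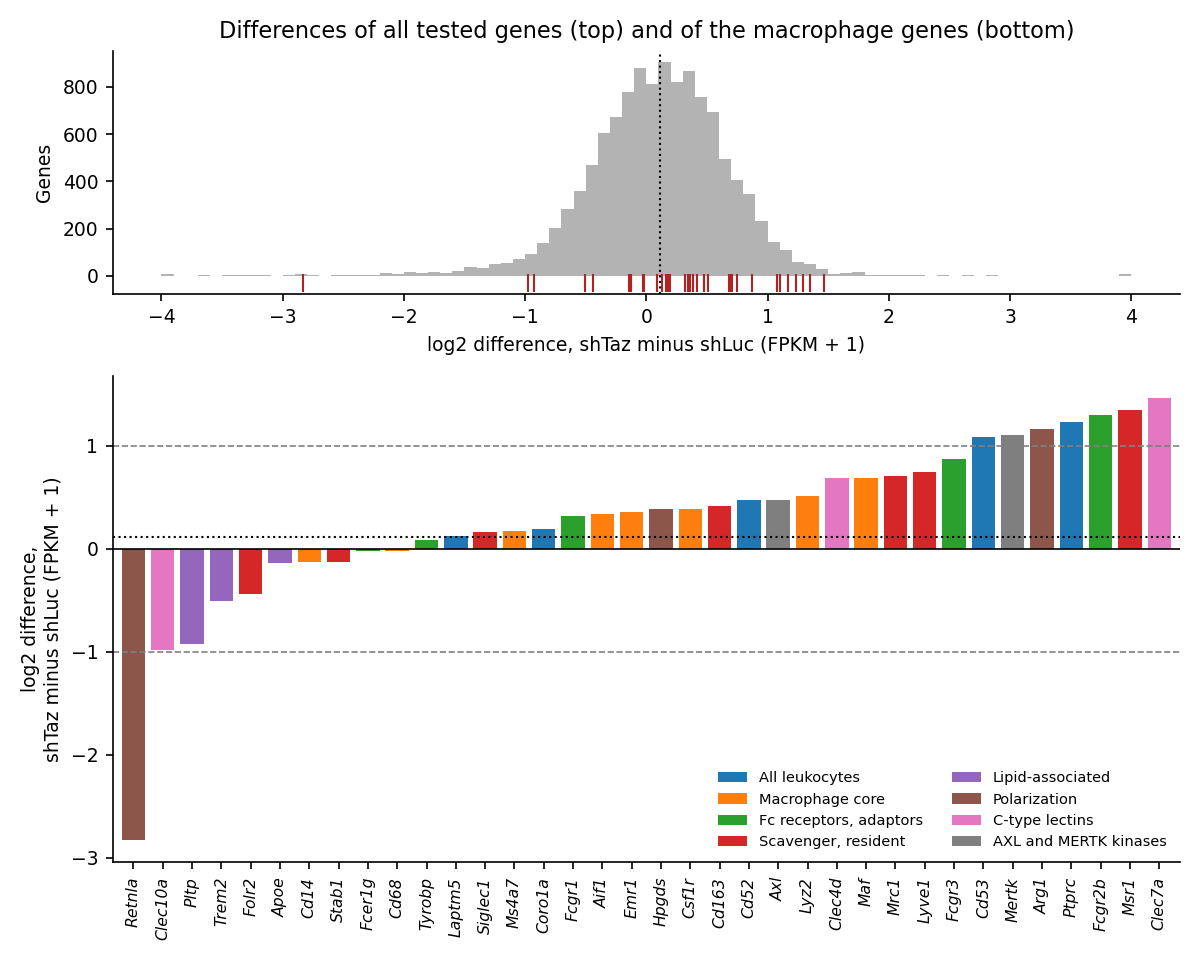
Top, histogram of the log2 difference of all 11650 tested genes (values beyond 4 in size are drawn at 4), with red ticks for the 36 macrophage genes. Bottom, the same 36 differences in order, coloured by role, with dashed lines at 2-fold and a dotted line at the median of all genes (0.12). The bars run from Clec7a at 1.46 to Retnla at -2.83.

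Among Fc receptors, which bind the constant part of antibodies, the low-affinity receptors differed most. Fcgr2b, the inhibitory receptor gene, was at 44.9 FPKM in shLuc and 112 FPKM in shTaz (1.30). Fcgr3, a low-affinity activating receptor gene, was at 137 and 251 FPKM (0.87). Fcgr1, the high-affinity activating receptor gene, was at 18.5 and 23.3 FPKM (0.32). All 3 were higher in shTaz in each of the 12 settings. Fcgr2b was at 0.329 times the level of Fcgr3 in shLuc and at 0.445 times in shTaz. Fcgr2b (chromosome 1, 170958617 to 170976547, minus strand) and Fcgr3 lie near each other and code for similar extracellular domains, so the division of reads between them is uncertain. Their sum was 182 and 363 FPKM and differed by 0.99.

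The signalling adaptor genes Fcer1g and Tyrobp were nearly equal between the columns. Fcer1g, which encodes the Fc receptor gamma chain, was at 596 and 586 FPKM, and Tyrobp, which encodes the adaptor DAP12, at 286 and 303 FPKM. Their differences of -0.024 and 0.085 took either sign across settings. Both adaptors were more abundant than any Fc receptor in both columns. Trem2, a receptor that signals through DAP12, stood at 0.435 times the level of Tyrobp in shLuc and at 0.287 times in shTaz.

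Scavenger receptors were found in both directions. Msr1, the class A scavenger receptor gene that takes up modified lipoproteins, was at 17.2 FPKM in shLuc and 45.3 FPKM in shTaz (1.35). Mrc1, the mannose receptor gene used as a marker of alternative polarization, was at 12.3 and 20.7 FPKM (0.71). Cd163, the hemoglobin scavenger receptor gene, was low at 1.82 and 2.78 FPKM (0.42). Lyve1, the hyaluronan receptor gene of some resident macrophages and of lymphatic vessels, was at 1.47 and 3.15 FPKM (0.75). These 4 were higher in shTaz in every setting that covered them. Folr2, the folate receptor gene of resident macrophages, was lower, at 26.2 and 19.1 FPKM (-0.44), also in every setting. Stab1, the scavenger receptor stabilin-1, was at 38.1 and 34.8 FPKM (-0.13), and Siglec1, the sialic acid receptor CD169, at 15.1 and 17.1 FPKM (0.16). The sign of Stab1 and Siglec1 was not kept, with values of 0.11 for Stab1 with the GC trend removed and -0.13 for Siglec1 with the length trend removed. Msr1 was at 0.450 times the level of Stab1 in shLuc and at 1.30 times in shTaz. Msr1 lies on chromosome 8 from 39581685 to 39642673 (minus strand) and has the lowest GC content of the 36 genes (38.4%). Its difference was 0.76 with the GC trend removed.

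Lymphatic endothelium, which also expresses Lyve1, had 3 of 6 listed markers in the table, with a summed level of 9.22 FPKM in shLuc and 12.2 FPKM in shTaz. Pdpn, its podoplanin gene, was at 6.68 and 10.7 FPKM, and Flt4, the receptor for VEGF-C, at 2.54 and 1.504 FPKM. Mmrn1 was listed at 0 in shLuc and at 0.0373 FPKM in shTaz. The part of lymphatic vessels in the Lyve1 difference was not tested.

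As deposited, the lipid-associated genes were the group with a median below 0. Apoe, the lipoprotein carrier gene, was the most abundant of the 39 genes at 4514 FPKM in shLuc and 4093 FPKM in shTaz (-0.14). Trem2, a lipid-sensing receptor gene of macrophages, was at 124 and 87.0 FPKM (-0.51). Pltp, the phospholipid transfer protein gene, was at 90.9 and 47.4 FPKM (-0.93). Gpnmb, a glycoprotein gene of lipid-laden macrophages, was at 1.497 and 0.382 FPKM and had a mean under 1 FPKM. All 4 were lower in shTaz as deposited, and none of the 3 that passed the filter reached 2-fold. Trem2 and Pltp were lower in all 12 settings, with Trem2 between -0.76 and -0.28 and Pltp between -1.06 and -0.66. Apoe turned to 0.43 with quantile normalization and to 0.21 with the GC trend removed. Apoe and Pltp are also expressed outside macrophages, in fibroblasts among other cells. The 9 fibroblast markers summed to 2172 FPKM in shLuc and 1380.2 FPKM in shTaz, and none was listed at 0. Of the 9, 8 were lower in shTaz, where 58.3% of all genes tested were higher, and 5 were 2-fold lower, against 3.25% of all genes. Dpt (18.4 and 1.16 FPKM), Dcn (13.8 and 1.85 FPKM) and Postn (35.5 and 8.29 FPKM) were the furthest, while Pdgfra was at 8.75 and 13.5 FPKM. The part of fibroblasts in the Apoe and Pltp values was not tested.

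Genes of macrophage polarization gave no common direction. Arg1, the arginase gene induced by interleukin 4 and by tumor signals, was at 34.6 FPKM in shLuc and 78.8 FPKM in shTaz (1.17). It lies on chromosome 10 from 24915221 to 24927484 (minus strand), and its difference stayed between 0.90 and 1.41 in the 12 settings. Retnla, which encodes the secreted protein RELM-alpha and is induced through STAT6, was at 6.12 FPKM in shLuc and was listed at 0 in shTaz. In all, 10 genes above 5 FPKM in shLuc were listed at 0 in shTaz, and none of 73 ribosomal protein genes was at 0 in either column, although Rpl26 was at 0.0108 FPKM in shLuc and 15.6 FPKM in shTaz. Retnla (chromosome 16, 48842551 to 48844461, plus strand) has a short transcript of 599 bases. Arg1 and Retnla, both used as markers of alternative polarization, thus had opposite directions. Nos2, the inducible nitric oxide synthase gene of classical polarization, was at 0.331 and 1.55 FPKM, under the filter. Arg1 was at 104 times the level of Nos2 in shLuc and at 51.0 times in shTaz. Both ratios divide by Nos2 values under the filter at unknown depth, so their change is uncertain. Hpgds, the prostaglandin D synthase gene of macrophages and mast cells, was at 4.95 and 6.75 FPKM (0.38), or -0.12 with the GC trend removed.

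Mast cells also express Hpgds. Of 8 listed mast cell markers 6 were found, 3 of which passed the filter, and the 6 summed to 37.4 FPKM in shLuc and 1.71 FPKM in shTaz. Tpsb2 was at 14.2 and 0.409 FPKM, Tpsab1 at 17.3 and 0.895 FPKM and Mcpt4, a chymase gene, at 3.65 FPKM and listed at 0. Cma1 (1.14 FPKM in shLuc) and Cpa3 (0.478 FPKM) were also listed at 0 in shTaz, and Kit was at 0.561 and 0.405 FPKM. The part of mast cells in the Hpgds values was not tested.

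C-type lectins, which recognise sugars on microbes and dead cells, were low and differed from each other. Clec7a, which encodes the fungal glucan receptor dectin-1, was at 3.34 FPKM in shLuc and 10.9 FPKM in shTaz (1.46), the furthest of the 36 genes on the higher side. Clec7a lies on chromosome 6 from 129461591 to 129472779 (minus strand), where GENCODE enters it as a polymorphic pseudogene. Clec4d, a receptor gene of the dectin-2 family, was at 2.64 and 4.84 FPKM (0.68), and its neighbour Clec4e, the Mincle gene, at 0.468 and 0.580 FPKM, under the filter. Clec10a, a galactose-type lectin gene induced by interleukin 4, was lower at 6.005 and 2.55 FPKM (-0.98), between -1.20 and -0.90 in the 11 settings that covered it. Clec7a was at 0.556 times the level of Clec10a in shLuc and at 4.29 times in shTaz. The near-identical gene Mgl2 was higher, at 9.30 and 15.0 FPKM, so that reads may have been divided differently between the pair. The sum of Clec10a and Mgl2 was 15.3 and 17.6 FPKM and differed by 0.19. Clec10a on its own is uncertain for this reason.

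Neutrophils express Fcgr3, Fcer1g, Clec7a, Clec4d, Clec4e and the leukocyte genes. Their 8 markers found of 9 listed summed to 6.61 FPKM in shLuc and 58.0 FPKM in shTaz. S100a9 was at 0.810 and 29.2 FPKM, S100a8 was listed at 0 and at 18.6 FPKM, and Csf3r was at 3.93 and 7.10 FPKM. Retnlg and Ngp were listed at 0 in shLuc and at 1.91 and 0.455 FPKM in shTaz. The other 3 were lower: Cxcr2 was at 0.867 and 0.694 FPKM, and Mmp8 (0.169 FPKM in shLuc) and Camp (0.836 FPKM) were listed at 0 in shTaz. S100a8 and S100a9 carried most of the summed level in shTaz. Of the genes shared with neutrophils, Clec7a, Clec4d, Fcgr3, Ptprc and Cd53 were higher in shTaz and Fcer1g was nearly equal. Cd52 (0.48), Coro1a (0.19) and Laptm5 (0.13, sign not kept) differed less, and Clec4e was under the filter. The part of neutrophils in these values was not tested.

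Both receptor kinases that sense dying cells were higher in shTaz. Mertk, the kinase gene by which macrophages engulf apoptotic cells, was at 0.969 FPKM in shLuc and 3.22 FPKM in shTaz (1.10), and it lies on chromosome 2 from 128698956 to 128802894 (plus strand). Axl, a related kinase gene that fibroblasts and tumor cells express too, was at 42.4 and 59.4 FPKM (0.48). Mertk was at 0.0228 times the level of Axl in shLuc and at 0.0542 times in shTaz. The third kinase of the family, Tyro3, was at 5.72 and 3.34 FPKM (-0.63). Of the ligands that bridge these kinases to dying cells, Gas6 was at 34.6 and 26.8 FPKM (-0.36) and Pros1 at 3.42 and 6.58 FPKM (0.78). Of 7 measured genes of this ligand and phagocytosis list, 4 were higher, near the 58.3% of all genes. None was 2-fold different and the median was 0.60.

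Transcripts of the 2-fold higher genes were poor in GC. Across the 36 genes the Spearman correlation of the difference with transcript GC content was -0.65, against -0.56 across 11116 genes with a known transcript. This describes genes of the same columns, which are not independent replicates. The 7 higher genes had 38.4% to 48.1% GC with a median of 40.6%, against a median of 51.5% for the 28 genes inside 2-fold. The boundaries of 46% and 50% GC used next were chosen after the values were seen. All 10 genes under 46% GC were higher in shTaz, with a median difference of 0.92. Of the 17 genes with 50% GC or more, 9 were higher, with a median of 0.085. The shares of all genes that were higher in these GC classes were not computed. Among all genes the median difference went from 0.56 in the tenth with the lowest GC content to -0.38 in the tenth with the highest. With this trend removed, the 7 genes differed by 0.53 (Cd53) to 0.93 (Clec7a) and none reached 2-fold, against 1.50% of all genes. Retnla and Clec10a were then 2-fold lower, 2 of the 36 against 3.15% of all genes. The member median was 0.27 with the GC trend removed and that of all genes 0.0032.

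**Figure D3:**
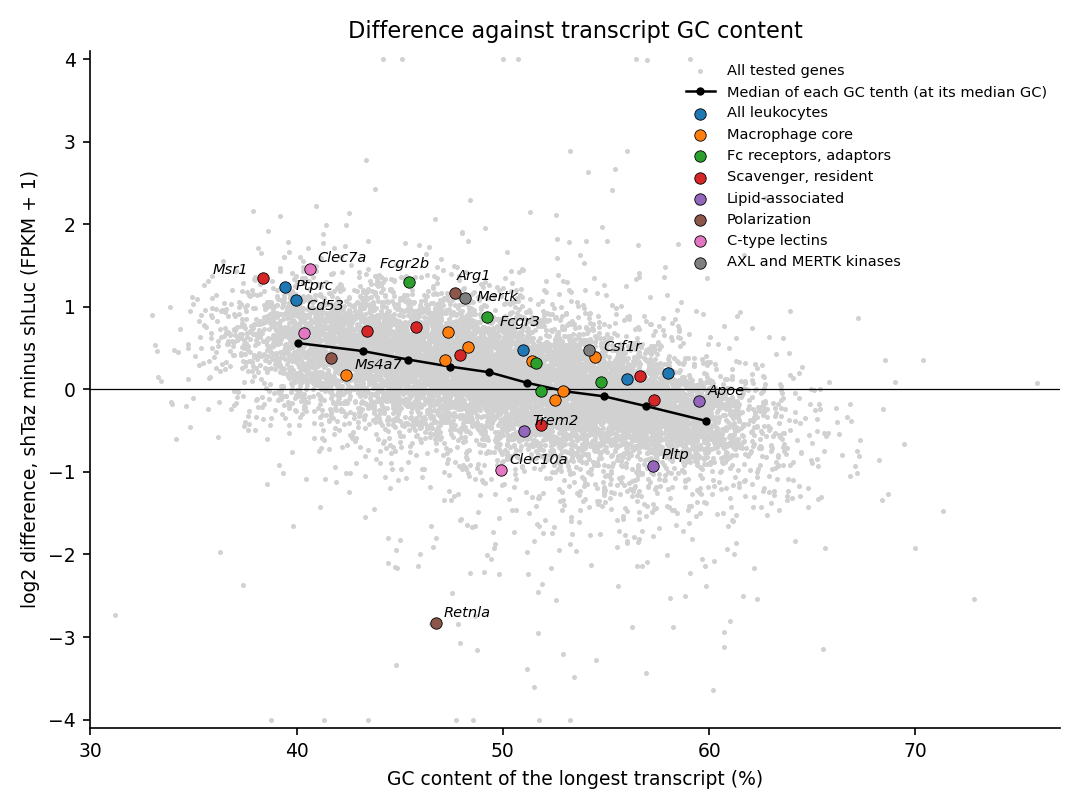
Log2 difference against GC content of the longest transcript, for all tested genes with a transcript (grey, differences beyond 4 drawn at 4) and for the 36 macrophage genes coloured by role. The black line joins the median differences of 10 groups of equal size by GC content, from 0.56 to -0.38. The macrophage genes under 46% GC all lie above 0, as does the black line there.

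**Figure D4:**
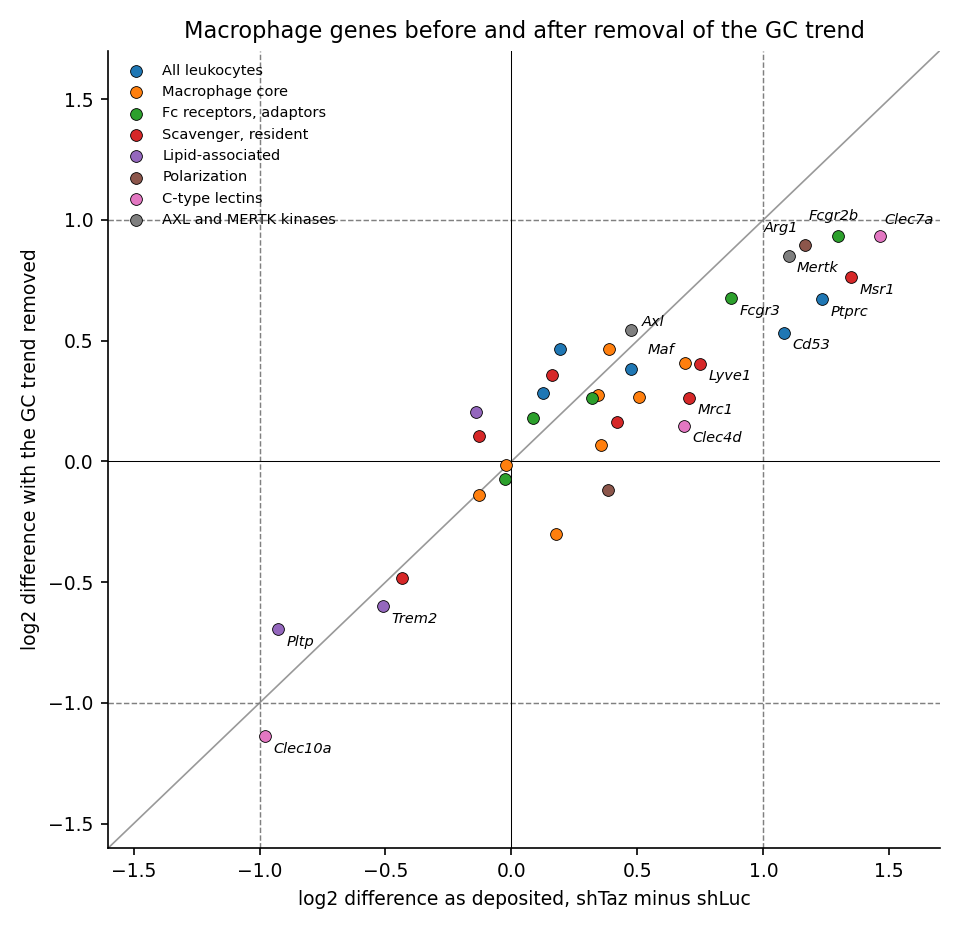
Log2 difference of 35 macrophage genes (all but Retnla) as deposited and with the GC trend removed, with 2-fold marked by dashed lines and equality by the grey line. The 7 genes right of 1 all lie below 1 on the vertical axis, between 0.53 and 0.93, and Clec10a is the gene below -1.

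Of 23 further surface and effector genes of macrophages, 18 were higher and 5 lower in shTaz, where 58.3% of all genes tested were higher. Their differences ran from -0.35 to 1.16 with a median of 0.41, and their summed level was 4980.4 FPKM in shLuc and 4776 FPKM in shTaz. Lilrb4, an inhibitory receptor gene, was 2-fold higher at 6.34 and 15.4 FPKM, 1 of the 23 against 3.96% of all genes, and at 0.66 with the GC trend removed. Next to it Ctss, the cathepsin S gene, was at 270 and 537 FPKM (0.99). The complement genes C1qa (1868 and 1470 FPKM), C1qb (736 and 715 FPKM) and C1qc (1289 and 1107 FPKM) were among the most abundant and lay at -0.35, -0.041 and -0.22. C1qa was at 0.0025 with the GC trend removed. The median of these 23 genes was 0.20 with the GC trend removed. Of 14 genes that signal below Fc receptors and dectin-1, 12 were higher, with a median of 0.35 as deposited and 0.37 with the GC trend removed. Btk, a kinase of this pathway, was at the 2-fold limit with 2.53 and 6.07 FPKM, and at 0.70 with the GC trend removed, and Blnk was the furthest in the other direction at 9.04 and 7.78 FPKM (-0.19).

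Of 12 measured ligand and receptor genes of the CSF1 axis and monocyte recruitment, 9 were higher in shTaz, against 58.3% of all genes, with a median of 0.40. Ccr2, the chemokine receptor gene of inflammatory monocytes, was 2-fold higher at 11.8 FPKM in shLuc and 27.2 FPKM in shTaz (1.14), but at 0.58 with the GC trend removed. Its ligand gene Ccl12 was at 58.8 and 110 FPKM (0.89) and Ccl2 at 9.75 and 17.0 FPKM (0.74). Csf1, the first ligand of CSF1R, was at 76.1 and 93.5 FPKM (0.29), while Il34, its second ligand, was lower at 25.7 and 15.8 FPKM (-0.67). Csf1 was at 2.96 times the level of Il34 in shLuc and at 5.93 times in shTaz. Cx3cr1, the receptor gene of patrolling monocytes and resident macrophages, was nearly equal at 139 and 130.3 FPKM.

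Of 11 measured myeloid transcription factor genes, 8 were higher in shTaz, against 58.3% of all genes. Their median was 0.30, or 0.19 with the GC trend removed. Irf8, a factor of monocyte and macrophage development, was at 14.2 FPKM in shLuc and 25.8 FPKM in shTaz (0.82). Nr1h3, which encodes the oxysterol receptor LXR-alpha, a regulator of lipid export, was 2-fold lower at 2.72 and 0.421 FPKM (-1.39). In the list of lipid handling and lysosomal genes, 8 of 12 were higher, against 58.3% of all genes. The median of that list was 0.27, or 0.16 with the GC trend removed. Fabp5, a fatty acid binding protein gene, was 2-fold lower at 20.9 and 9.07 FPKM, and Lipa, the lysosomal lipase gene, was furthest higher at 16.8 and 30.03 FPKM (0.80).

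Further genes of classical and alternative activation were split. Of 7 measured classical genes, Il1a (0.544 FPKM in shLuc and 4.27 FPKM in shTaz) and Ptgs2 (0.726 and 3.23 FPKM) were 2-fold higher, and both passed the filter through shTaz. Of all genes tested, 3.96% were 2-fold higher and 3.25% 2-fold lower. With the GC trend removed Il1a was at 1.26 and Ptgs2 at 0.75. Cd40, a co-stimulatory receptor gene, was 2-fold lower at 6.23 and 1.58 FPKM, and the list median was 0.29. Of 10 measured alternative genes 5 were higher and 5 lower, where 58.3% of all genes were higher, with a median of 0.025. Ccl8, a chemokine gene of alternatively activated macrophages, was at 50.4 and 8.29 FPKM (-2.47), and Tgm2, the transglutaminase gene, at 23.9 and 10.4 FPKM (-1.12, or -0.90 with the GC trend removed). Alox15 was 2-fold higher at 0.178 and 1.93 FPKM and passed the filter through shTaz. With the GC trend removed the medians were -0.029 for the classical and -0.16 for the alternative list.

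Dendritic cells share Clec10a, Clec7a and Fc receptors with macrophages. The 9 dendritic cell markers summed to 8.05 and 6.51 FPKM. Flt3 and Clec9a were listed at 0 in shTaz, but were only at 0.143 and 0.236 FPKM in shLuc, under the filter. Batf3 was the furthest higher (1.85 and 3.84 FPKM) and Ccr7 the furthest lower (1.87 and 0.672 FPKM) among their 3 measured members. The 7 T, B and NK cell markers found of 12 listed summed to 3.65 and 1.74 FPKM. Cd3e, Cd3d, Cd8a and Ncr1 were listed at 0 in shTaz. In shLuc they were only at 0.274, 0.270, 0.119 and 0.282 FPKM, under the filter. Cd4 was at 1.82 and 1.15 FPKM. The 8 blood endothelium markers summed to 133 and 88.6 FPKM, with Plvap furthest lower (67.2 and 36.2 FPKM) and Kdr furthest higher (1.69 and 2.68 FPKM).

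**Figure D5:**
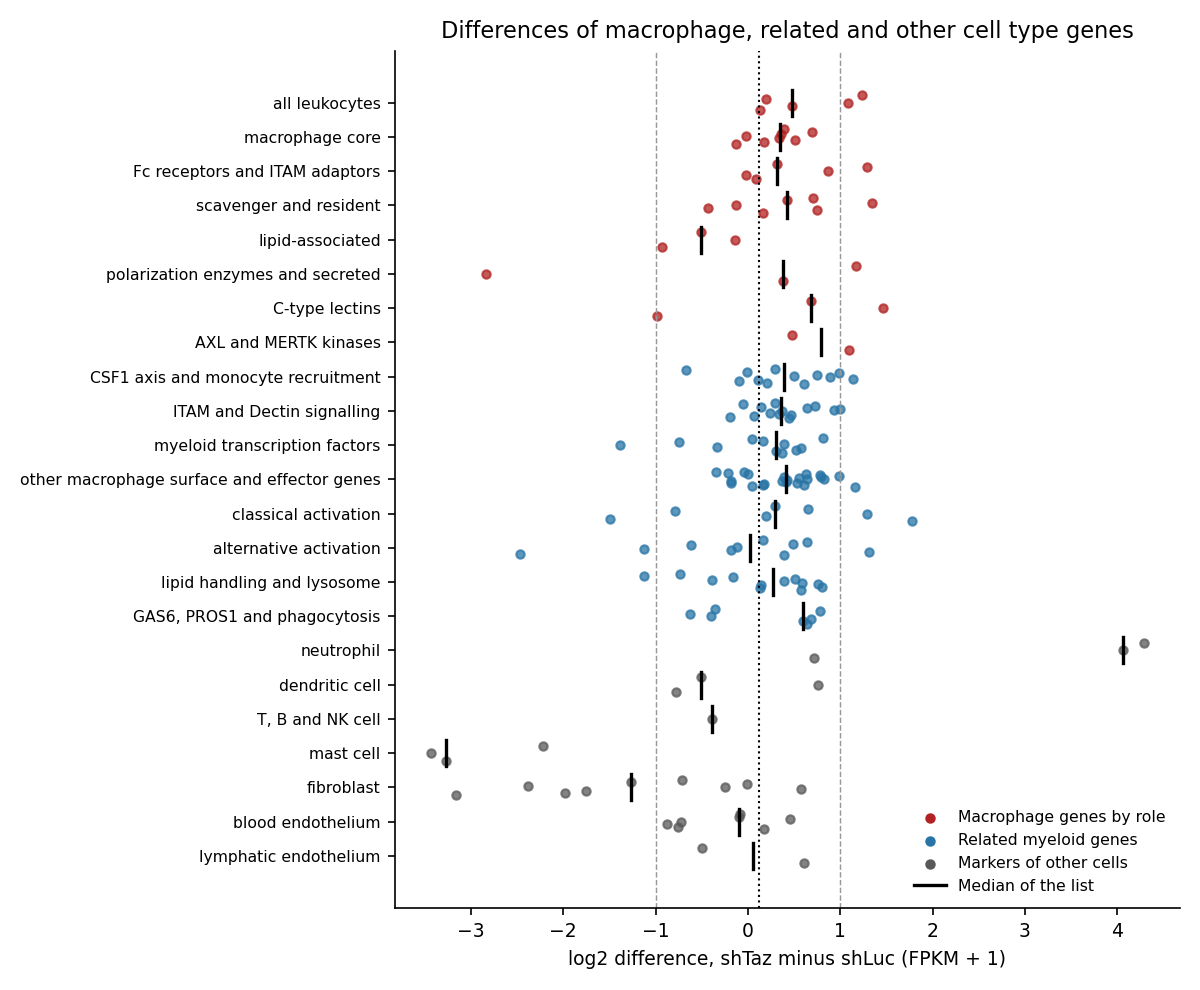
Log2 differences of the measured genes of each list, 1 point per gene, with the list median as a black bar, 2-fold as dashed lines and the median of all genes as a dotted line. As deposited, the lipid-associated list (3 measured genes) is the only macrophage role with its median below 0 (-0.51). With the GC trend removed (not drawn), the median of the polarization list is also below 0 (-0.12). The neutrophil markers reach above 4, and the mast cell and fibroblast medians lie at -3.27 and -1.27.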

How the data were processed

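RNA from subcutaneous tumors was sequenced on an Illumina HiSeq instrument, per the series' design text, with 2 samples per group in the labels. The genome build mm10 and the programs TopHat and Trim Galore are named per the submitters' processing notes. Versions, the FPKM program, annotation and strand setting are not given in the sources used here. The authors deposited FPKM values, 1 column per group, whose heading is the description shared by both samples of that group. FPKM corrects neither for GC content nor for the share taken by a few abundant RNAs.

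No test was possible with 1 column per group. Log2 differences used a pseudocount of 1 FPKM, with no further scaling, and a minimum mean of 1 FPKM. Depth is unknown: the best whole-read step left 26.9% of 1316 low values in shLuc and 26.8% of 1122 in shTaz no further than 0.1 from whole reads, where 20% would be for a step set in advance, so no reads were recovered. The members and lists were chosen with earlier results of these data known. Every member found is named. For each related or marker list up to 3 genes past 2-fold in each direction are named, or else the furthest, as well as C1qa, C1qb, C1qc, Csf1, Il34, Gas6, Pros1 and Wwtr1. Any other gene was named with its values known.

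Transcript GC content and length came from the longest GENCODE M21 transcript of a gene (95.4% of tested genes, all 39 members), and gene positions, counted from 1, from the same annotation of mm10. Trends were removed by lowess (fraction 0.3, statsmodels 0.14.6), which was tested on simulated data. Analyses ran in Python 3.11.15 with numpy 2.4.6 and pandas 2.3.3. Alternatives were no filter, a minimum mean of 5 FPKM, a pseudocount of 0.1, columns rescaled to the same sum, median-ratio scaling, quantile normalization, GC or length trend removed and protein-coding genes. Removal of both trends, genes above 0 in both columns and Sfpi1 counted as Spi1 were added after the data were seen.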

Additional observations from a re-analysis of the deposited data

How the results depend on the processing

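No paired analysis was possible because the table holds 1 column per group, and no replicate could be left out. The median difference of the macrophage genes, 0.37 as reported, was positive under each alternative and moved most to 0.61 with rescaled columns, 0.24 with median-ratio scaling, 0.27 with the GC trend removed and 0.26 with the length trend removed. The 7 members 2-fold higher became 0 with the GC trend removed and 1 (Arg1) with the GC and length trends removed. The 1 member 2-fold lower became 2 with a pseudocount of 0.1, quantile normalization, or the GC, length or both trends removed. It became 3 with median-ratio scaling, and 0 with a minimum mean of 5 FPKM or genes above 0 in both columns, where Retnla is not covered. Over all genes, 461 were 2-fold higher as reported, against 996 with a pseudocount of 0.1, 219 with a minimum mean of 5 FPKM, 1409 with rescaled columns, 294 with quantile normalization, 167 or 298 when the GC or the length trend was removed and 193 with both removed. The 379 genes 2-fold lower became 215 with a minimum mean of 5 FPKM. Counting Sfpi1 as Spi1 gave a median of 0.36 and the same counts. Of the 36 measured members, 21 were higher and 5 lower in each setting that covered them, and the sign of 10 changed. Of all genes tested, 58.3% were higher as deposited. The share of all genes that kept 1 direction in every setting was not computed, so these counts have no background to be read against. Only the scaling and trend settings could change a sign. The unknown depth limits the low genes most, such as Mertk, Cd163, Lyve1 and Clec4d.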
